A study of Mus musculus with 115 samples.

Results

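Proliferation was described in the 73 mouse prostate libraries in which Chga lay under 1 TPM, taken here as non-neuroendocrine. The other 42 libraries of the series had at least 1 TPM. Low Chga alone defined the set, and other neuroendocrine markers, some of them present in single libraries, are given below. TPM is the share of a library's reads assigned to a gene, corrected for the length of its transcripts and scaled to the same total in every library. Chga encodes chromogranin A, a protein of neuroendocrine granules. The 73 libraries were ranked by Mki67 TPM, and the 24 with the highest values (Mki67-high) were compared with the 24 with the lowest (Mki67-low), 48 libraries in all. Both sides were therefore selected on measured values and not by a label, since the labels put all libraries in 1 group. The remaining 25 libraries (middle) entered neither side and served for tests that the sides could not give. All mice were transgene-positive (TRAMP x WSB/EiJ) F2 males. C57BL/6-TRAMP females had been crossed with WSB/EiJ males, and F1 females with the transgene had been bred to F1 males without it. The TRAMP transgene drives SV40 T antigen from the probasin promoter, which is active in prostate epithelium. RNA was taken in bulk from snap frozen prostate tissue, and small prostates gave RNA from the ventral prostate only. No library was tied here to an age, a tumor weight or a region of the prostate. In such bulk RNA, fewer cells of a type and less RNA per cell cannot be told apart.

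Mki67 encodes Ki-67, a protein that coats mitotic chromosomes and is made by cycling cells but not by resting ones. SV40 T antigen binds the Rb family and p53, and E2F factors released from Rb switch on the genes of DNA replication. Genes of mitosis come on later in the cycle, largely through promoter elements known as the cell cycle genes homology region (CHR) and the CCAAT box. TRAMP prostates are known for epithelial hyperplasia as well as for neuroendocrine carcinoma.

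The promoters that the results return to are shown first, from 250 bases before to 50 bases after the RefSeq start on GRCm38.p6, each written 5' to 3' on the strand of its gene. Capitals mark a CCAAT box, an E2F site (TTTCCCGC or TTTGGCGC), a CHR with the letters TTTGAA or, in Isg15, an interferon-stimulated response element (ISRE, GAAANNGAAA, where N is any base), all searched on both strands. In capitals the promoters of Mki67 (chr7:135716330-135716629, minus strand) and Top2a (chr11:99024140-99024439, minus strand) carry CHR and CCAAT motifs, that of the replication helicase gene Mcm6 (chr1:128359656-128359955, minus strand) E2F and CCAAT motifs, the upstream of 2 starts of Cdkn2a (chr4:89294570-89294869, minus strand) 1 E2F motif, and that of Isg15 (chr4:156200769-156201068, minus strand) 2 ISRE motifs. Matches were counted without overlap. In Isg15 the bases GAAACCGAAA, which run from 1 marked ISRE into the other, also match but were neither counted nor marked. The start of Cdkn2a was taken from those whose window held an E2F motif, and its other start is not shown.
Mki67: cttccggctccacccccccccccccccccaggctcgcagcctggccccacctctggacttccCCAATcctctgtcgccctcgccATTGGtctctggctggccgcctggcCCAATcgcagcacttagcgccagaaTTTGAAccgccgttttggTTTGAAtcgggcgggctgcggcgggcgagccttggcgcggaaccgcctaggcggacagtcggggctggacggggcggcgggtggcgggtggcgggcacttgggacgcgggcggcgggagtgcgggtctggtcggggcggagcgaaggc
Top2a: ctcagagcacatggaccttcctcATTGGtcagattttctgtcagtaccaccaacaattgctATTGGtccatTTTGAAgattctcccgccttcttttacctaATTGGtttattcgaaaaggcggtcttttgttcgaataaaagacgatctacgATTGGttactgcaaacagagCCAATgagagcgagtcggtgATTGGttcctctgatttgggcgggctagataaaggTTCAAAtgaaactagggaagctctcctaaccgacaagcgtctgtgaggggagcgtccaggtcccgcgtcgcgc
Mcm6: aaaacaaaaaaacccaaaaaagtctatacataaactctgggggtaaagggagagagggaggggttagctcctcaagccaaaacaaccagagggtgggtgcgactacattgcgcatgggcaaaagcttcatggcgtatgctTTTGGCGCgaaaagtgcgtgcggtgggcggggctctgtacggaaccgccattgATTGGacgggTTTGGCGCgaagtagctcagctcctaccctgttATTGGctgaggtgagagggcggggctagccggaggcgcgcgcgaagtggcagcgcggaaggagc
Cdkn2a: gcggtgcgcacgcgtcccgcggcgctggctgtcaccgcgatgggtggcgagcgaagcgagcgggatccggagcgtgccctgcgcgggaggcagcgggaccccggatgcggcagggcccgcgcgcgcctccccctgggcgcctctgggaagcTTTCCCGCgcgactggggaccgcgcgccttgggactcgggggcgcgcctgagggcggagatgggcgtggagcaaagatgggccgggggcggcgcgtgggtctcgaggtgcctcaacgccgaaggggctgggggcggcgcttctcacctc
Isg15: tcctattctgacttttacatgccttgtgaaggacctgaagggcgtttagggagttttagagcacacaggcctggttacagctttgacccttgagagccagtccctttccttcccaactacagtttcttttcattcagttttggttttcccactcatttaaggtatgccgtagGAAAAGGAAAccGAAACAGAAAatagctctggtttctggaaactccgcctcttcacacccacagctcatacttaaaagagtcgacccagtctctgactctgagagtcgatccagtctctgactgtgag

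RefSeq promoters were found for 9420 of 12992 tested gene symbols, 12015 promoters in all. A CHR was present in 1447 of these 12015 promoters and in 24 of 34 (70.6%) from a list of mitotic genes. E2F motifs were present in 2.84% of all promoters, in 9 of 35 (25.7%) from a list of replication genes and in 0 of 34 from mitotic genes. An ISRE was present in 3.04% of all promoters and in 9 of 14 (64.3%) from a list of interferon-stimulated genes. Among the genes higher in the Mki67-high libraries by the rule given below, 7.54% of 889 promoters held an E2F motif, 19.3% a CHR and 8.32% an ISRE. For genes lower in those libraries the shares were 0%, 18.4% and 5.26% of 38 promoters. These are counts of letters in a window and do not show that a factor bound there.

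Mki67 had a lowest, median and highest level of 0.39, 1.66 and 3.03 TPM in the 24 Mki67-low libraries and of 6.31, 10.7 and 57.9 TPM in the 24 Mki67-high libraries. The steps at the edges were small: the lowest middle library also had 3.03 TPM, and the highest middle library had 5.91 TPM. At the Chga limit, the highest library inside had 0.81 TPM and the lowest outside 1.15 TPM. Top2a, the topoisomerase that untangles chromosomes before they separate, had 1.27, 5.92 and 10.5 TPM in the Mki67-low and 8.52, 25.5 and 298 TPM in the Mki67-high libraries, where 23 of 24 lay above every Mki67-low library. In the 42 libraries with Chga of at least 1 TPM the medians were higher still, 73.8 TPM for Mki67 and 218 TPM for Top2a, though their ranges of 0.62 to 144 TPM and 1.61 to 357 TPM took in those of both sides almost whole. These values follow from the ranking and carry no test.

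**Figure D1:**
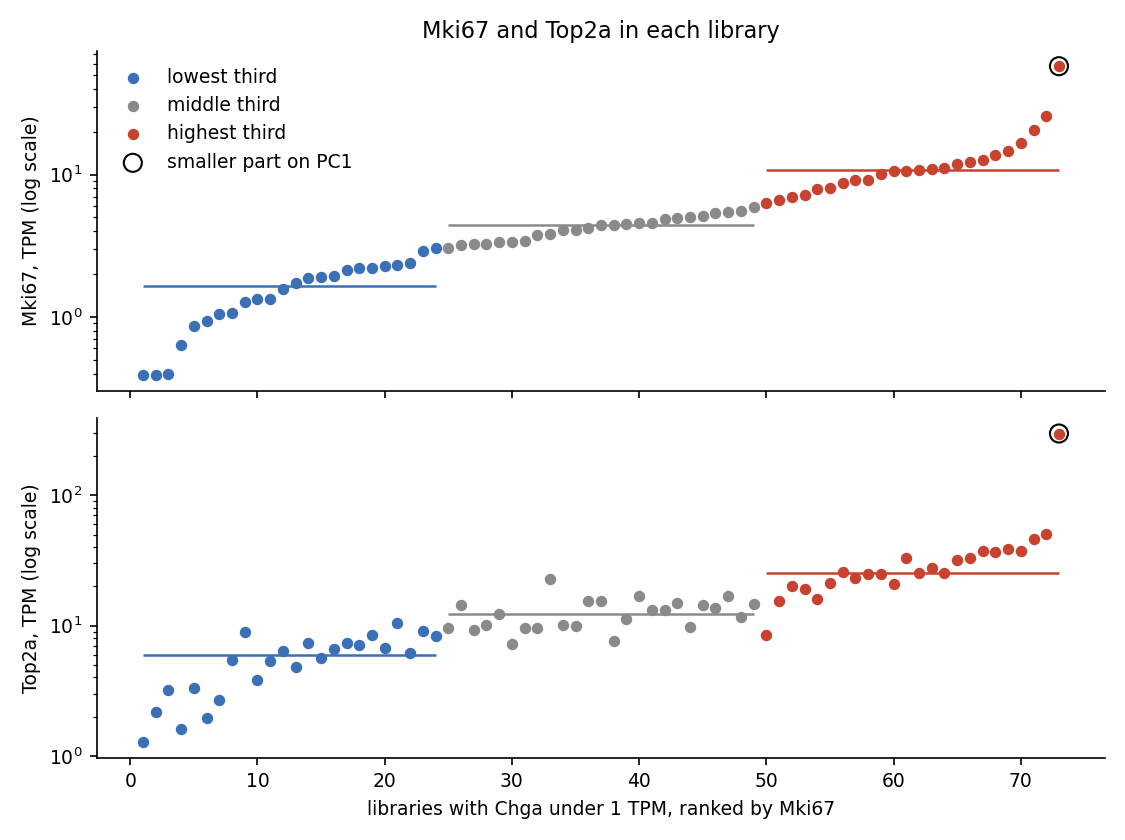
Mki67 (top) and Top2a (bottom) in TPM, on log scales, in each of the 73 libraries with Chga under 1 TPM, ordered by Mki67. Blue points are the Mki67-low, grey the middle and red the Mki67-high libraries, horizontal lines are the medians, and the ringed library is the one that stands apart, at 57.9 TPM of Mki67 and 298 TPM of Top2a.

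The label of the set was checked against markers. In the Mki67-high libraries the neuroendocrine gene Insm1 reached at most 0.11 TPM, against a median of 24.2 TPM in the libraries with Chga. Chgb, Scg2 and Pcsk1, of neuroendocrine granules, had medians of 0.04, 0.07 and 0.07 TPM there but reached 1.42, 1.80 and 3.49 TPM, and 1, 2 and 1 of the 24 libraries had at least 1 TPM. The luminal keratin gene Krt8 lay between 170 and 466 TPM in all 24. By its other genes, 1 Mki67-high library went further against the label, although those 3 genes were at 0.12, 0.08 and 0.05 TPM in it. It had the highest Mki67 of the set, 44.1 TPM of Foxa2, a transcription factor of neuroendocrine prostate tumors that reached at most 0.08 TPM in the other 23, only 0.05 TPM of the prostate gene Hoxb13 and no Krt5, while Chga was 0.15 TPM. On the first principal component of all libraries, which held 48.7% of the variance, it fell with 35 of the libraries with Chga, and the other 72 libraries fell into the larger part. A middle library resembled it in part, with 0.02 TPM of Hoxb13 and 3.88 TPM of Foxa2. That library differed in having 2.89 TPM of Krt5 and only 3.8 TPM of Mki67, and it fell into the larger part. Without the Mki67-high library the counts of called genes were the same in 21 of the 27 gene lists described below, and the others are given beside their list.

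On the Mki67-low side 4 libraries stood apart. They were mice numbered in the low 5000s, and the 2 other libraries numbered there had Chga of at least 1 TPM. In these 4 Cdkn2a was at 0 to 0.03 TPM, against 0.43 to 6.57 TPM in the other 20 Mki67-low libraries, Mcm6 at 0.78 to 1.35 against 3.33 to 18.7 TPM, Top2a at 1.27 to 2.17 against 2.67 to 10.5 TPM and Krt8 at 77.97 to 82.3 against 83.4 to 210 TPM. The labels do not say what sets these mice apart, and the part of these libraries in each difference was measured by leaving them out. Without them 6.92% of tested genes were called higher and 0.469% (61 genes) lower by the rule given below, and the counts were the same in 18 of the 27 lists. Where a single library that stands apart is named below, it is the Mki67-high one.

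The libraries also differed in their make-up. The 20 largest genes took a median of 70.1% of TPM in the Mki67-low and 62.6% in the Mki67-high libraries, and the 7SL RNA gene Rn7s1 alone took 25.4% and 18.8%. A median of 12098 and 13317 genes reached 1 TPM. The median difference over the 12999 autosomal genes tested was 0.42 on the log2(TPM + 1) scale with TPM as deposited and -0.02 after median-of-ratios scaling, and 91.7% and 47.1% of the genes had a difference above 0. Values are given on the deposited scale, with the scaled difference beside list medians and some single genes. A difference near 0.42 is that of the typical gene. A gene given without a scaled difference need not have kept its call after scaling. TPM keeps no read depth, so the counting error of each value is unknown.

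A gene was called when limma gave a Benjamini-Hochberg adjusted p under 0.05 and the sides differed by at least 1 on the log2(TPM + 1) scale. By this rule 1031 genes (7.93% of those tested) were higher and 56 (0.431%) lower in the Mki67-high libraries. Without the library that stands apart there were 965 (7.42%) and 48 (0.369%), and 937 of the 1031 and 44 of the 56 were called again. Without the 4 Mki67-low libraries that stand apart 879 and 50 were called again. The split depended on the scale: 94.8% of calls were higher with TPM as deposited, 84.9% after TPM was rescaled without the 20 largest genes (782 higher, 6.03%, and 139 lower, 1.07%), and 77.4% after median-of-ratios scaling, where 424 genes (3.26%) were higher and 124 (0.954%) lower. All 424 were among the 1031. In 196 genes (1.51%) every Mki67-high library lay above every Mki67-low library, and in 0 genes (0%) was the reverse seen. The mean of the middle libraries lay between those of the sides for 1023 of the 1031 (99.2%) and 49 of the 56 (87.5%), against 88.1% of all genes tested.

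**Figure D2:**
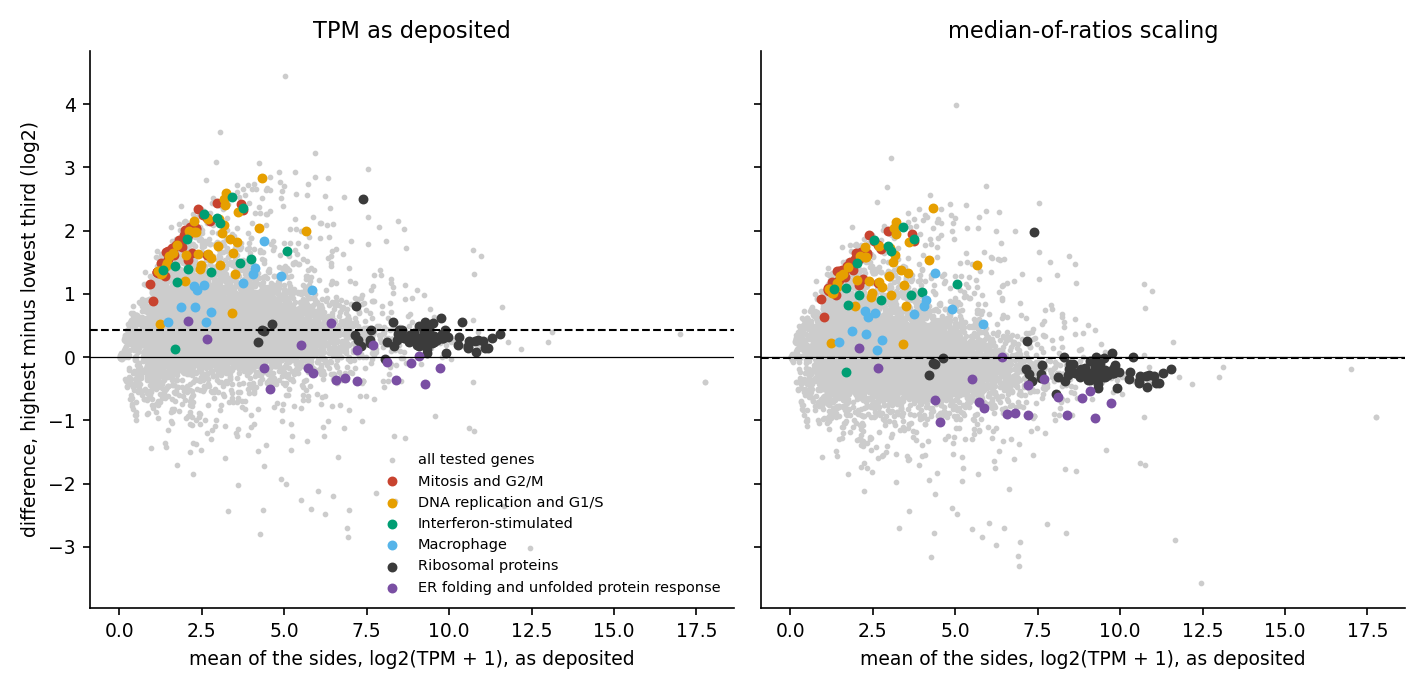
Difference of each tested gene, Mki67-high minus Mki67-low libraries, against its mean level over the sides, both in log2(TPM + 1), with TPM as deposited (left) and after median-of-ratios scaling (right). The dashed line is the median of all genes, 0.42 on the left and -0.02 on the right. Most replication, mitotic and interferon-stimulated genes lie above it in both panels, and most genes of protein folding in the endoplasmic reticulum (ER) lie below it.

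Most genes of DNA replication and of mitosis were higher in the Mki67-high libraries. Since Mki67 is made in the same cells, this is a description of the sides and carries no test. By the rule above 37 of 39 tested genes of DNA replication and G1/S were higher and 0 lower, with a median difference of 1.65 (1.29 scaled), and 28 of them did not overlap between the sides. For mitosis and G2/M the count was 38 of 39, the median 1.74 (1.39 scaled), and 25 did not overlap. For replication-dependent histones, which are switched on in S phase and lack a poly(A) tail, it was 52 of 59, with a median of 2.12 (1.67 scaled), and 50 without the Mki67-high and 48 without the 4 Mki67-low libraries that stand apart. Histone genes are near-identical copies of each other, so the level of a single one is uncertain.

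Mcm6 led the replication genes, at 0.78, 8.29 and 18.7 TPM (lowest, median and highest) in the Mki67-low and 22.4, 55.1 and 108.7 TPM in the Mki67-high libraries. The other helicase subunits Mcm5 and Mcm3 and the maintenance methylation factor Uhrf1 followed, with differences of 2.60 ± 0.19, 2.50 ± 0.17 and 2.41 ± 0.19 (SE). In none of these 4 genes did the sides overlap. Prc1, which bundles microtubules of the central spindle, led the mitotic genes with medians of 2.73 and 16.5 TPM. Cdk1, the kinase that starts mitosis, had medians of 5.49 and 27.8 TPM, and the mitotic kinase gene Pbk 1.43 and 10.6 TPM. The linker histone Hist1h1a went from 5.28 to 50.7 TPM. At the other end E2f2, Brca2 and Mybl2 differed by 0.53 ± 0.11, 0.70 ± 0.16 and 0.89 ± 0.14 (SE) and were not called.

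The middle libraries, which neither side used and whose Mki67 covered only 3.03 to 5.91 TPM, allowed a test. The slope of each gene on log2(Mki67 TPM + 1) was fitted over these 25 libraries with limma. At an unadjusted p under 0.05, 2159 genes (16.6%) had a positive and 17 (0.131%) a negative slope. A positive slope by this measure was found for 31 of 39 replication genes, 33 of 39 mitotic genes and 7 of 59 histone genes, and for 32, 37 and 8 without the middle library with Foxa2, when 1990 genes were positive and 43 negative. Median slopes were 0.96, 0.63 and 0.52, against 0.48 for all genes, and all 39 replication and all 39 mitotic genes had a positive slope, as did 90% of all genes. Histone genes did not stand out here: 7 of 59 is a smaller share than the 16.6% of all genes. After adjustment over all genes 1 gene (0.00769%) rose and 0 (0%) fell. It was Timeless, a replication fork gene named after its value was seen, with 1.70, 3.67 and 7.64 TPM in the middle libraries and a slope of 1.64 ± 0.27 (SE, adjusted p = 0.0102). Without the middle library with Foxa2, Diaph3 also passed, and 2 genes were called. After the 2 middle libraries with the most distant Mki67 values were left out the count was 0, and 1192 genes still had a positive slope at an unadjusted p under 0.05.

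Among genes that brake the cycle, Cdkn2a rose most. It encodes p16Ink4a and p19Arf, which hold back Cdk4 and Mdm2, and lies on chromosome 4 (89274471 to 89294653, minus strand, GRCm38). It was at 0, 1.87 and 6.57 TPM in the Mki67-low and at 5.6, 21.9 and 45.4 TPM in the Mki67-high libraries, and 23 of 24 lay above every Mki67-low library. The difference was 3.09 ± 0.21 (SE, adjusted p = 1.77e-16), or 2.70 scaled, the largest of any protein-coding autosomal gene outside the proliferation lists. Without the 4 Mki67-low libraries that stand apart it was 2.82 (adjusted p = 3.32e-15), below the 3.12 of Clu. Cdkn2a lay at a median of 5.05 TPM in the middle libraries, where its slope of 1.08 had an unadjusted p of 0.0334 and an adjusted p of 0.297. In the libraries with Chga its median was 15.8 TPM. TPM per gene does not separate p16Ink4a from p19Arf.

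Of 26 genes of G1 cyclins, Rb and p53 pathways, 9 rose and 0 fell (median 0.74, 0.26 scaled), and 3 rose after scaling, 7 without the Mki67-high and 8 without the 4 Mki67-low libraries that stand apart. The Cdk4 and Cdk6 inhibitor Cdkn2c went from a median of 7.73 to 31.2 TPM (1.89 ± 0.17, adjusted p = 3.24e-13), with 23 of 24 Mki67-high libraries above all Mki67-low libraries. Btg2, an antiproliferative target of p53, rose by 1.58 ± 0.22 (SE, adjusted p = 3.37e-08). Cdk2, the kinase of S phase, went from 2.90 to 8.97 TPM with no overlap. The D-type cyclins showed no such step: Ccnd1, Ccnd2 and Ccnd3 differed by 0.30 ± 0.29, 0.03 ± 0.16 and 0.34 ± 0.09 (SE), and after scaling by -0.19, -0.35 and -0.18, so the sign rests on the scale. In the Myc network 1 of 10 genes rose, the Max partner Mxd3, which went from 0.76 to 3.24 TPM with no overlap (median of the list 0.30, -0.10 scaled). This count is near the 7.93% of all tested genes called higher. Of 10 genes of PRC2 and DNA methylation 2 rose (median 0.66, 0.20 scaled). These were Dnmt1, which copies methylation behind the replication fork, from 6.14 to 23.4 TPM (1.80 ± 0.14), and Ezh2, the methyltransferase of PRC2, from 3.005 to 10.1 TPM (1.55 ± 0.11), both without overlap.

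The other genes with the largest differences outside the proliferation lists were named by that size alone, belonged to no common list and, other than Stmn1, overlapped between the sides. Clu, the secreted chaperone clusterin, had 5.54, 61.8 and 430 TPM in the Mki67-low and 97.04, 467 and 1656 TPM in the Mki67-high libraries (2.98 ± 0.36, adjusted p = 7.54e-10, 2.44 scaled). Krt4, a keratin of stratified epithelia, had 0.57, 9.12 and 45.8 TPM and 6.47, 68.97 and 192 TPM (2.85 ± 0.35, adjusted p = 1.19e-09, 2.35 scaled). Both overlapped between the sides, with 14 and 18 Mki67-high libraries above every Mki67-low one. Stmn1, a microtubule destabilizer that is in no proliferation list here, went from a median of 18.5 to 97.9 TPM without overlap. The trefoil factor gene Tff3, the ion carrier Slc12a2, the glycosyltransferase B4galnt2, Lrrc26, Ppp1r1b and the sodium pump regulator Fxyd3 rose by 2.54 to 2.81 and overlapped between the sides.

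**Figure D3:**
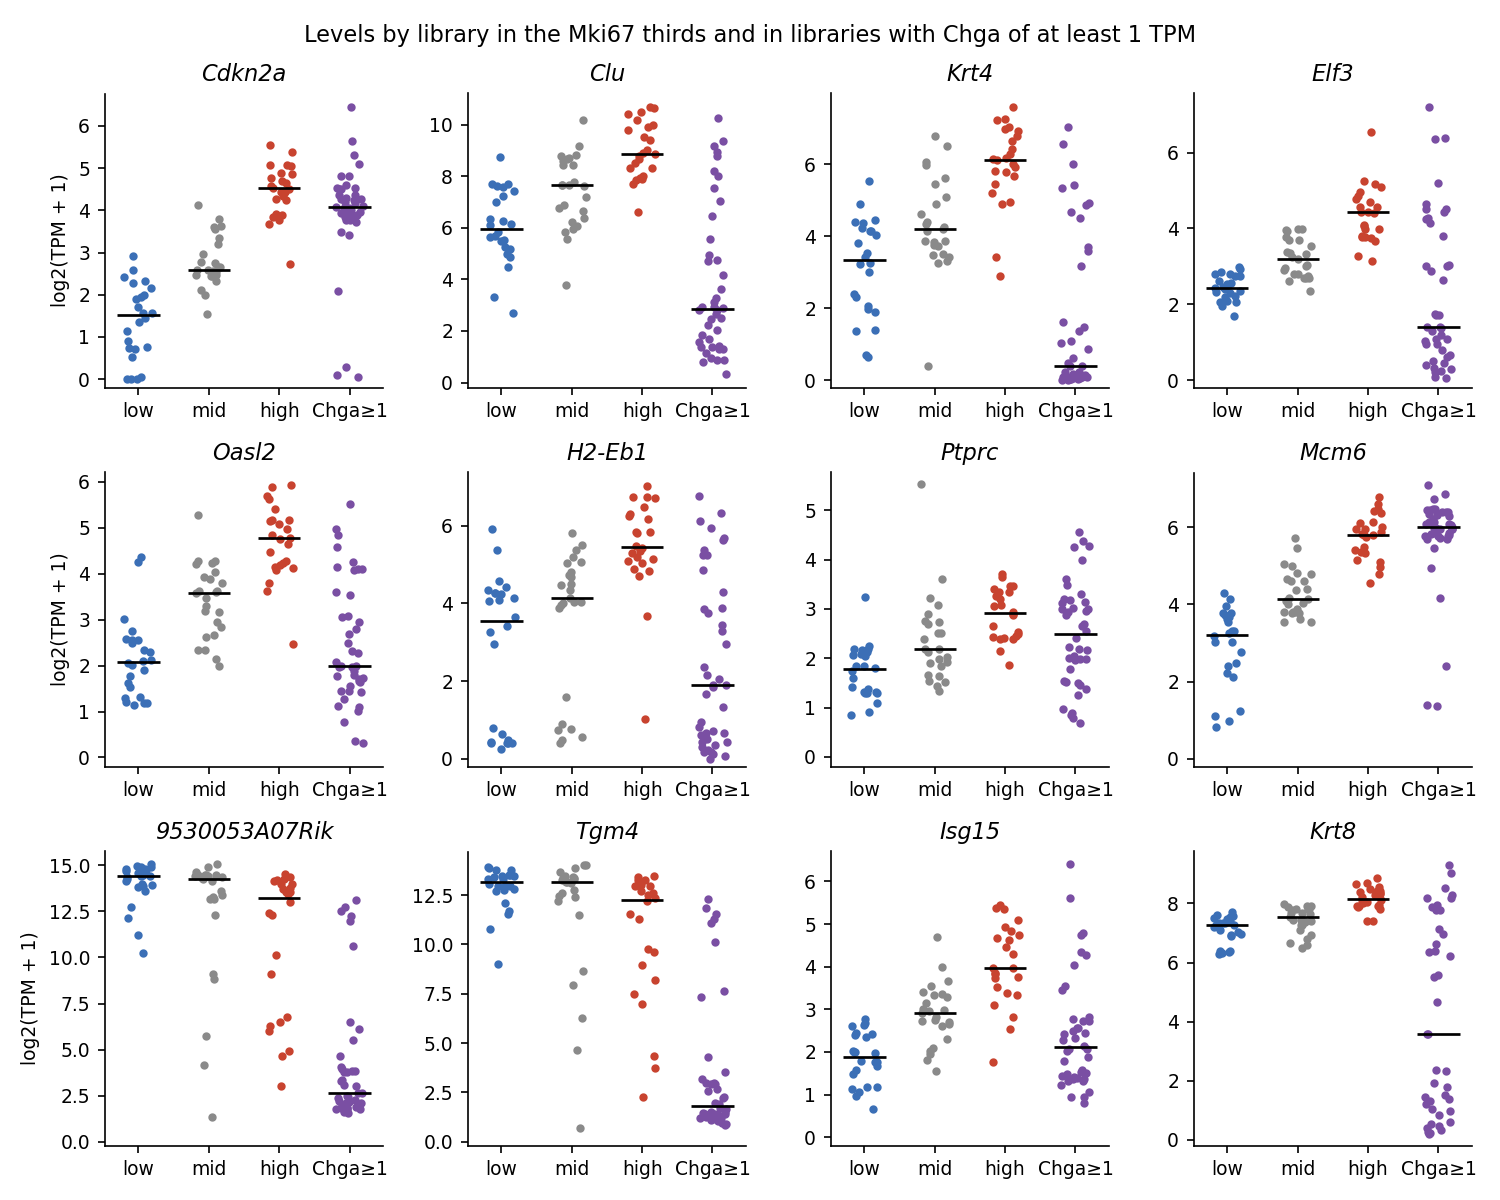
Levels in log2(TPM + 1) of 12 genes in each Mki67-low (blue), middle (grey) and Mki67-high (red) library and in each library with Chga of at least 1 TPM (purple), with group medians as lines. Cdkn2a, Elf3 and Mcm6 step up from low to high, while for 9530053A07Rik and Tgm4 9 and 7 of the 24 Mki67-high libraries lie below every Mki67-low library and the others overlap with them.

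Of 12 luminal epithelial genes 4 rose and 0 fell (median 0.68, 0.15 scaled), 2 rose without the 4 Mki67-low libraries that stand apart, and after scaling 1 was called higher and 1 lower. Elf3, an epithelial transcription factor that also rose after scaling, went from 2.21, 4.41 and 6.97 TPM to 7.84, 20.4 and 91.5 TPM with no overlap (1.94 ± 0.16, adjusted p = 3.14e-14). Krt19, Krt8 and the E-cadherin gene Cdh1 rose by 1.38 ± 0.16, 1.07 ± 0.12 and 1.02 ± 0.11, and differed by 0.83, 0.52 and 0.47 after scaling. Of 14 androgen-responsive genes 1 rose, Fkbp5, a chaperone of steroid receptors, from 8.89 to 27.2 TPM (median of the list 0.49, -0.02 scaled), but after scaling 0 were called higher and 2 lower. Of 9 basal genes 1 rose, the keratin gene Krt17, from 0.90 to 3.50 TPM (median 0.18, -0.07 scaled). Of all tested genes 7.93% were called higher, so 1 of 14 and 1 of 9 do not set these 2 lists apart. After scaling 3.26% of all tested genes were called higher and 0.954% lower.

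Interferon-stimulated genes rose as a group outside the cycle. Of 15 tested, 14 rose and 0 fell, with a median of 1.54 (1.09 scaled), and 10 rose after scaling. Oasl2, an antiviral oligoadenylate synthetase-like gene, had 1.2, 3.24 and 19.5 TPM in the Mki67-low and 4.54, 26.3 and 59.8 TPM in the Mki67-high libraries (2.53 ± 0.23, adjusted p = 5.07e-13). Irf7, which amplifies the interferon response, had medians of 4.53 and 32.9 TPM (2.36 ± 0.24), Usp18 1.59 and 11.1 TPM (2.26 ± 0.23) and Isg15 2.67 and 14.7 TPM (2.203 ± 0.22). In 22 of 24 Mki67-high libraries Isg15 lay above every Mki67-low library. Mx1 was the exception, at 0.13 ± 0.13. In the middle libraries 0 of the 15 had a positive slope on Mki67 at an unadjusted p under 0.05, although the median slope was 0.59.

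Leukocyte genes rose beside them. Ptprc, the pan-leukocyte antigen CD45, had 0.81, 2.42 and 8.47 TPM in the Mki67-low and 2.65, 6.55 and 12.03 TPM in the Mki67-high libraries (1.17 ± 0.15, adjusted p = 2.65e-09), and 8 of 24 lay above every Mki67-low library. Of 14 macrophage genes 9 rose (median 1.10, 0.65 scaled), led by the lysosomal protease gene Ctss, from 10.4 to 42.4 TPM, and the complement genes C1qb, C1qc and C1qa. Of 6 MHC class II genes all 6 rose (median 1.41, 0.88 scaled), among them H2-Ab1, from 24.7 to 65.4 TPM, and H2-Eb1, which ranged from 0.20 to 59.3 TPM in the Mki67-low libraries alone. Of 6 genes of T and cytotoxic cells 4 rose (median 1.08, 0.76 scaled), including Gzmb, the killer protease granzyme B, from 0.44 to 2.21 TPM. After scaling the counts were 1 of 14, 1 of 6 and 0 of 6, so Ptprc, which is in the T cell list, was not called on that scale. Without the 4 Mki67-low libraries that stand apart the counts were 5 of 14, 5 of 6 and 3 of 6. The T cell gene Cd3e stayed at medians of 0.07 and 0.25 TPM, and 0 of 2 genes of B and plasma cells were called (1 without the Mki67-high library that stands apart). The summed macrophage list ranged from 35.7 to 294 TPM in the Mki67-low and from 95.8 to 502 TPM in the Mki67-high libraries.

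With log2 Ptprc as a covariate, 307 genes (2.36%) were higher and 42 (0.323%) lower, and the median difference of all genes fell to 0.10. Of the 1031 genes 306 were called again, and of the 56 only 6. Under this covariate 31 of 39 replication, 36 of 39 mitotic and 41 of 59 histone genes were still higher, as was Cdkn2a (2.48), Clu (1.90), Krt4 (2.17) and Elf3 (1.40). Of the interferon-stimulated genes 4 of 15 remained, and of the macrophage, MHC class II and T cell genes 0, with medians of 0.00, 0.33 and 0.42. Ptprc is itself 1 of the 6 genes of the T cell list. Slc12a2 and H2-Eb1 lost their calls (adjusted p = 0.104 and 0.163). Ptprc itself differs between the sides, so this comparison removes whatever goes with it, and the part of leukocytes in the other differences was not tested.

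**Figure D4:**
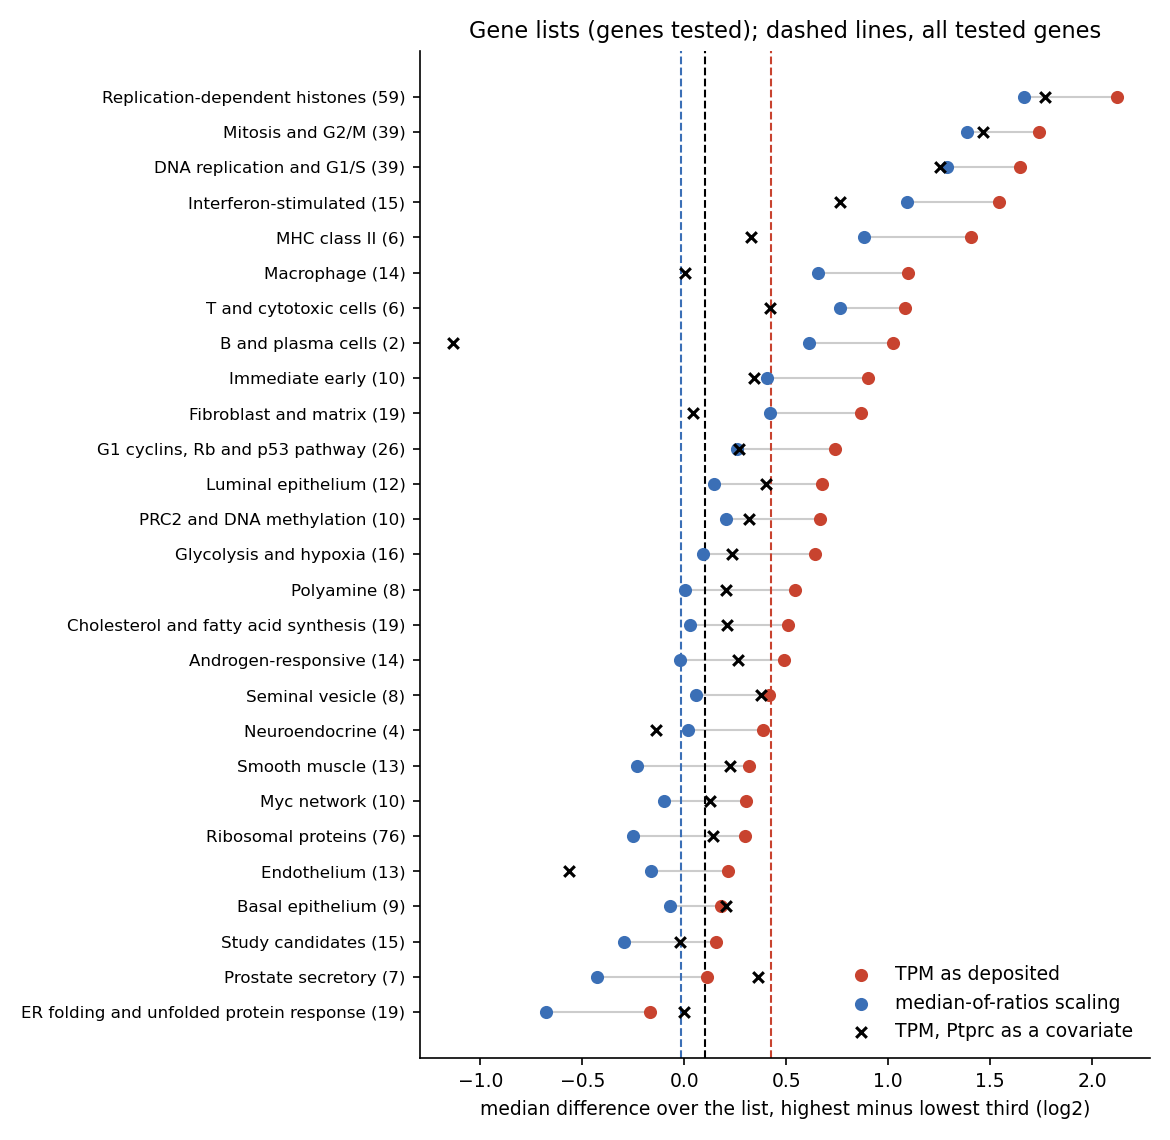
Median difference over each gene list, Mki67-high minus Mki67-low libraries, in log2 units, with TPM as deposited (red), after median-of-ratios scaling (blue) and with Ptprc as a covariate (crosses). Dashed lines give the median of all tested genes in the matching color, 0.42, -0.02 and 0.10. Histone, mitotic and replication genes lie farthest to the right on all 3, and macrophage genes move to 0.00 with the covariate.

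Stromal genes were less marked. Of 19 fibroblast and matrix genes 7 rose (median 0.87, 0.42 scaled), but 3 without the Mki67-high and 5 without the 4 Mki67-low libraries that stand apart, and 0 after scaling. The fibronectin gene Fn1 rose most, from 17.9 to 45.5 TPM (1.39 ± 0.20). Col1a1 had medians of 9.51 and 16.1 TPM and reached 294 TPM in the library that stands apart. None of 13 smooth muscle genes (median 0.32, -0.23 scaled), 13 endothelial genes (0.22, -0.16 scaled) or 8 seminal vesicle genes (0.41, 0.06 scaled) was called. The 4 testable genes of the neuroendocrine list, Ncam1, Uchl1, Eno2 and Stmn2, differed by 0.74, 0.49, 0.28 and 0.15, with 0 called. Of the 23 genes on that list, 9 stayed under 1 TPM in all 48 libraries. In the middle libraries endothelial genes had a median slope of 1.39, and 8 of 13 had a positive slope at an unadjusted p under 0.05, but 5 of 13 without the middle library with Foxa2.

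Among the 56 lower genes were secreted products of the prostate that lay at very high levels. Tgm4, the prostate transglutaminase of the seminal plug, had 517, 9277 and 15543 TPM in the Mki67-low and 3.77, 4917 and 11263 TPM in the Mki67-high libraries (-2.35 ± 0.70, adjusted p = 0.00256, -2.89 scaled). 9530053A07Rik had 1226, 21403 and 33972 TPM and 7.25, 9496 and 23416 TPM (-3.02 ± 0.80, adjusted p = 0.000766, -3.56 scaled). The sides overlapped widely, and the differences came largely from 7 and 9 Mki67-high libraries that lay below every Mki67-low one. C1s2 and C1rb, rodent copies of the complement proteases, and Glb1l3 and Gsdma fell by 2.42, 2.27, 2.2 and 2.12 in the same way, with 7 to 9 libraries below. C1s2 and C1rb resemble C1s1 and C1ra, and reads shared between them could be split either way.

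The prostate secretory list did not move as one. Of all tested genes 7.93% were called higher and 0.431% lower. Of its 7 genes 1 fell, Tgm4, and 1 rose, the beta-defensin gene Defb50, from a median of 825 to 3513 TPM (1.70 ± 0.61, adjusted p = 0.0114), a call lost after scaling (1.16, adjusted p = 0.122). Its median was 0.11 (-0.43 scaled), and in the middle libraries its median slope was -0.40, or -0.98 without the one with Foxa2. Msmb differed by 1.83 ± 0.87 (adjusted p = 0.0529). Without the library that stands apart 3 of the 7 rose, Defb50 (2.16), Msmb (2.17) and Mme (1.06). Without the 4 Mki67-low libraries that stand apart Msmb was called as well (2.08, adjusted p = 0.0352), and the median of the list was 0.65. Ren1, Crisp1 and Akr1b7 had wide ranges within a side (Ren1 0.52 to 4402 TPM in the Mki67-low libraries), and Ms4a5 went from a median of 84.9 to 2.29 TPM. Ms4a5 was only 0.34 to 1.69 TPM in the 4 Mki67-low libraries that stand apart, and 0.89 to 611 TPM in the other 20. With Ptprc as a covariate 9530053A07Rik differed by -0.09, C1rb by -0.05, and Tgm4 and Ren1 changed sign to 0.075 and 0.17. Without the library that stands apart Akr1b7 lost its call (adjusted p = 0.0582), as it did without the 4 Mki67-low libraries (adjusted p = 0.0524). Gm10260 fell too, but it was listed at 0 in libraries of both sides.

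Most lists of housekeeping and metabolic genes held few calls, and the share of all tested genes called higher was 7.93%. In glycolysis and hypoxia 3 of 16 rose (median 0.64, 0.09 scaled), Hk2, Eno1 and Pfkp, and 2 rose when either the Mki67-high or the 4 Mki67-low libraries that stand apart were left out. The hexokinase gene Hk2 went from 2.45 to 14.98 TPM (1.82 ± 0.26). Of 10 immediate early genes 3 rose (0.90, 0.41 scaled), Fos, Egr1 and Ier2, and 8 of 10 had a positive slope in the middle libraries at an unadjusted p under 0.05 (7 without the one with Foxa2). These genes also respond to tissue handling, whose part was not tested. None of 19 genes of cholesterol and fatty acid synthesis (0.51, 0.03 scaled) or 8 of polyamine metabolism (0.54, 0.00 scaled) was called. Genes of ER folding and the unfolded protein response had the lowest median of the lists (-0.17, -0.68 scaled), with 0 of 19 called and 1 lower after scaling, Dnajb9. For 15 of the 19 the scaled difference was negative at an adjusted p under 0.05 with no minimum difference. The share of all genes at this looser rule was not counted, so the 15 cannot be set against it. Of 76 ribosomal protein genes 1 was called, Rps2 (2.50 ± 0.67), which ranged from 1.90 to 990 TPM in the Mki67-low libraries and has near-identical copies. The list's median was 0.30, or -0.25 scaled, against 0.42 and -0.02 for all genes, so its direction rests on the scale. At an adjusted p under 0.05 with no minimum difference 36 of 76 were lower after scaling, again without a share of all genes. Of 15 tested candidate genes of the study, 0 were called (0.15, -0.29 scaled). The list held 25 genes, all autosomal, and those left untested had a mean under 1 TPM. The authors had chosen the candidates on prostates of this cross, fewer than the libraries used here. Which libraries those were is not stated, so the list is not independent of these samples.

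Slopes on Mki67 were then compared with those in libraries that express Chga, which the ranking did not use. Over the 72 libraries with Chga under 1 TPM in the larger part, Mki67 ran from 0.39 to 25.7 TPM, and over the 35 libraries with Chga in the smaller part from 20 to 144 TPM, so the ranges hardly met. In the 72 libraries 9775 genes (75.2%) had a positive and 202 (1.55%) a negative slope at an adjusted p under 0.05. In the 35 libraries 2733 genes (21%) had a positive and 3275 (25.2%) a negative one, and the median slope was -0.05. The balance rests on the scale: after TPM was rescaled without the 20 largest genes the counts were 4701 positive and 927 negative in the 72 libraries and 3939 and 3316 in the 35, and the median slopes 0.07 and 0.02. Positive slopes were found there for 31 of 39 mitotic, 21 of 39 replication and 16 of 59 histone genes, and negative ones for 0, 0 and 1. Ezh2 had a slope of 0.74 (adjusted p = 2.23e-10). The genes of the interferon response and of leukocytes went down as Mki67 went up: 12 of 15 interferon-stimulated, 14 of 14 macrophage, 5 of 6 MHC class II and 6 of 6 T cell genes had a negative slope, and 0 a positive one, with the same counts after rescaling. So did 10 of 12 luminal and 16 of 19 fibroblast genes. Cdkn2a had a slope of -0.32 (adjusted p = 0.0731).

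The difference between the slopes of the sets was tested as an interaction. It passed for 7166 genes (55.1%), 6070 of them (46.7%) with the lower slope in the libraries with Chga and 1096 (8.43%) with the higher. After rescaling 6814 passed, 3979 lower and 2835 higher, so the split rests on the scale. Slopes over the 72 libraries draw on the libraries of both sides, so for genes picked by their difference a positive slope there, and part of the interaction, follows from the choice. All 15 interferon-stimulated and all 14 macrophage genes passed, and did so after TPM was rescaled without the 20 largest genes. Oasl2 had slopes of 1.06 and -0.69 (difference -1.75 ± 0.28, adjusted p = 1.58e-07), H2-Ab1 0.65 and -1.79 (-2.44 ± 0.29, adjusted p = 1.39e-11) and Elf3 0.78 and -1.93 (-2.71 ± 0.29, adjusted p = 7.60e-13). Replication and mitotic genes passed as well, 34 and 30 of 39, but with median slopes above 0 in both sets, 0.71 and 0.27 for replication and 0.74 and 0.34 for mitosis. Ezh2 did not pass (0.11 ± 0.10, adjusted p = 0.355). With only the 23 Mki67-high libraries of the larger part in place of the 72, 1853 genes passed. Because Mki67 differed so much between the sets, a slope that bends with the level of Mki67 cannot be told apart from one that differs with the kind of library.

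**Figure D5:**
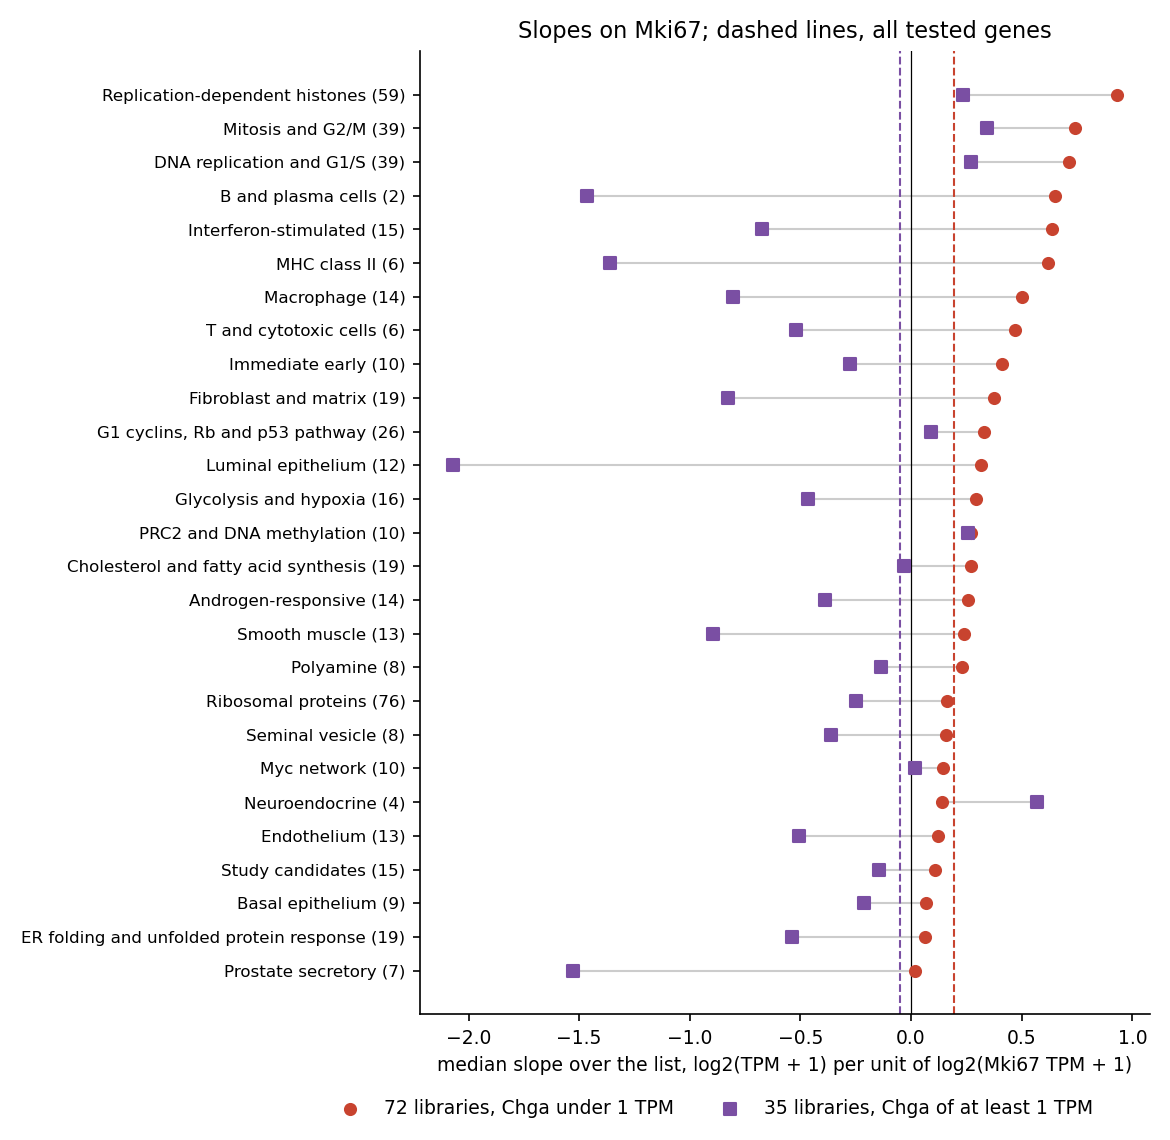
Median slope over each gene list of log2(TPM + 1) on log2(Mki67 TPM + 1) in the 72 libraries with Chga under 1 TPM (red circles) and the 35 libraries with Chga of at least 1 TPM (purple squares). Dashed lines give the median slope of all tested genes, 0.19 and -0.05. Histone, mitotic and replication genes lie above 0 in both sets, while luminal, MHC class II, macrophage and interferon-stimulated genes lie above 0 in the first and below 0 in the second.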

How the data were processed

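Ribosomal RNA-depleted total RNA had been sequenced as paired reads, and each library was titled with its own mouse number. The authors trimmed the reads, mapped them to a diploid C57BL/6 and WSB transcriptome made with Seqnature, and deposited TPM per gene from RSEM. Per the submitters' processing notes the tools were CASAVA 1.8.2, Bowtie2 2.2.5 and RSEM 1.2.20. The build was GRCm38, and the gene annotation was not given in the sources used here. TPM sums to a fixed total, so a fall of a few very large genes raises the rest.

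Of 45699 genes, 45136 were found in GENCODE M21 and 40935 were autosomal. Autosomal genes whose mean over the 73 libraries was 1 TPM or more were tested, 12999 without Mki67 and Chga. Sides were compared on log2(TPM + 1) in limma 3.58.1 (R 4.3.3) with a trend and Benjamini-Hochberg adjustment, two-sided. Because Mki67 formed the sides, a p-value measures how a gene's level went with Mki67 over mice, not the effect of a condition. Slopes used the same tool. Alternatives were a rescaling of TPM that left out the 20 largest genes, scaling by median of ratios, another pseudocount, other filters and limits, other rankings, a rank-sum test, Ptprc or seminal vesicle content as a covariate, and libraries left out. The rescaled fits without the library that stands apart or with Ptprc, the exchange of tied libraries, the comparison of slopes with its settings, the ISRE and the fits without 1 middle library or without the 4 low libraries that stand apart were chosen after seeing the data. Named genes were the 12 protein-coding genes with the largest difference each way among calls outside the proliferation lists, up to 4 members of each list with the largest difference, the markers and any candidate of the study that was called. Some items are not reported here. Other genes named were picked after their values were seen. Members and lists were chosen with earlier results of these data known. The fit was checked on simulated data with known differences. Python 3.11.15, pandas 2.3.3 and matplotlib 3.10.9 were used.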

Additional observations from a re-analysis of the deposited data

Results flagged for a closer look

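For 6 genes among those that rose most in the Mki67-high libraries, the slope on Mki67 was positive in the 72 libraries with Chga under 1 TPM and negative in the 35 libraries with Chga, each past the threshold, and the difference of the slopes passed the interaction threshold. The genes were picked for a large difference between the sides, whose libraries are among the 72, so the positive slope and part of each difference of slopes follow from that choice, and the p-values are no independent test. The negative slopes come from libraries that the choice did not use. The difference of slopes, libraries with Chga minus libraries without, was -2.91 for Clu, -2.67 for Krt4, -2.25 for B4galnt2, -2.15 for Lrrc26, -2.40 for Ppp1r1b and -3.24 for Fxyd3, in log2(TPM + 1) per unit of log2(Mki67 TPM + 1). Adjusted p ranged from 2.94e-11 for Fxyd3 to 4.25e-06 for Lrrc26 (limma). In the libraries with Chga the median of Krt4 was 0.32 TPM, against 68.97 TPM in the Mki67-high libraries.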

How the results depend on the processing

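The count of genes higher in the Mki67-high libraries, 1031 as reported, was 1755 with log2(TPM + 0.1), 424 with median-of-ratios scaling, 631 with a mean of at least 5 TPM, 481 with the ranking split at its middle, 307 with Ptprc as a covariate, 354 with rescaling and Ptprc, 9511 with no minimum difference and 20 with Chga under 0.1 TPM, where 7 libraries and 2 per side were left. The share of tested genes that were lower, 0.431%, was 0.785%, 0.954%, 0.688%, 0.162%, 0.655%, 1.82% and 0.185% under the same settings other than Ptprc alone. It was 1.07% with rescaling, 0.917% with rescaling and without the library that stands apart, 0.140% with no filter on mean TPM and 0.262% with a ranking by Top2a. Leaving out 1 library at a time gave 965 to 1096 higher genes and 0.338% to 0.500% lower. The 1 gene with a slope in the middle libraries became 0 after the 2 with the most distant Mki67 values were left out and 2 without the library with Foxa2. The 7166 genes whose slopes differed became 1853 with Mki67-high libraries only.

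Relative to the median of all tested genes, rescaling moved the list median of DNA replication from 1.22 to 1.59 and that of mitosis from 1.32 to 1.87. With Ptprc as a covariate the relative medians went from 0.32 to 0.16 for G1, Rb and p53, from -0.12 to 0.025 for the Myc network, from -0.25 to 0.10 for basal epithelium, from -0.21 to -0.67 for endothelium, from 0.66 to 0.32 for T cells, from 0.60 to -1.24 for B cells, from 0.67 to -0.10 for macrophages, from 0.99 to 0.22 for MHC class II and from 1.12 to 0.66 for interferon-stimulated genes. With Chga under 0.1 TPM they were 0.83 for DNA replication, -0.38 for androgen-responsive genes, 0.60 for basal epithelium, -4.86 for seminal vesicle, 1.33 for smooth muscle, 4.34 for B cells, 0.55 for interferon-stimulated genes, 0.75 for cholesterol synthesis and 0.88 for glycolysis. Reversed genes were Ren1 (0.17), Tgm4 (0.075) and 9530003J23Rik (0.27) with Ptprc as a covariate, and Crisp1 (1.59), Akr1b7 (1.90) and Rps2 (-1.46) with Chga under 0.1 TPM. Over 8 settings, values of the 127 named genes kept direction and side of the threshold in 832 cases, lost the call in 160, gained it in 13 and reversed in 6. The cause of these changes was not tested.

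No paired analysis was possible because the labels give 1 group and no replicate numbers shared between groups. TPM carries no depth, so counting error is unknown. The sides come from a measured gene, and age, tumor weight and prostate region were not tied to libraries, so these and Mki67 cannot be told apart. The Mki67-high side holds 3 libraries with mouse numbers under 4000 and the Mki67-low side 0, while the Mki67-low side holds 4 with numbers in the low 5000s and the Mki67-high side 0.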

Other observations

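Of all tested genes the largest difference between the sides was that of Gm44390, a gene annotated as a miRNA and named here after its value was seen. It had 0, 8.16 and 89.4 TPM (lowest, median and highest) in the Mki67-low, 55.5 TPM (median) in the middle and 52.7, 173.5 and 522.7 TPM in the Mki67-high libraries, a difference of 4.45 ± 0.49 (SE, adjusted p = 8.03e-11, limma) and 3.99 after median-of-ratios scaling. Its median was 580 TPM in the libraries with Chga. Gm44390 covers 144 bases of chromosome 13 (22035164 to 22035307, plus strand, GRCm38), all of them within the histone gene Hist1h2ah (22035164 to 22035568, minus strand), which had medians of 2.06 and 14.4 TPM (2.44 ± 0.24). How reads were divided between these overlapping genes was not tested.

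Of the 21 small noncoding genes called higher, 9 overlapped a replication-dependent histone gene. The deposited table gave 9 of the 21 the same TPM in every library, with a difference of 1.93 each. Those with the same TPM count 9 times among the 1031 while holding 1 measurement. The 2 sets of 9 are not the same: Gm44390 overlaps a histone gene but has its own values, and Gm44314 shares the values but overlaps none.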
